A study of Mus musculus with 17 samples.

Results

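Chromatin accessibility at the interferon-induced genes Ifit1, Ifit2 and Ifit3 was followed in bone marrow-derived macrophages (BMDMs) by ATAC-seq, in which a transposase cuts and tags open DNA. A peak is a stretch where cuts pile up above the local background. All peaks of the 17 deposited lists that lie within 20 kb of the 3 gene bodies on mouse chromosome 19 were taken. They came to 239 peak intervals of the 808470 in all lists, and merged across lists into 34 elements. Of these, 12 were among the 34186 consensus sites of the whole series and were tested, numbered E1 to E12 along the chromosome, and 22 were not, since at most 1 list held them among its best peaks, and are described by their counts. Elements were selected on having a peak in any list, whatever its genotype or time. No contrast between groups was used to pick elements, but the 3 genes were chosen with earlier results of these data known. Some elements reached the consensus only through their 18 h peaks, and this is stated where it applies. The last consensus site inside the windows lay 17890 bp from a gene body and the next one outside lay 22704 bp away, at Lipa.

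BMDMs were grown for 7 days from male mice aged 6 to 12 weeks. WT mice were littermates, and KO mice lack the nuclear receptor Nur77 (gene Nr4a1) in the whole body. The deletion came from crossing C57Bl6/J mice with CMV-Cre to mice with a loxP-flanked allele, and the Cre was bred out afterwards. Cells of each genotype received 100 ng/ml LPS, a bacterial cell wall component, for 0, 1 or 18 h. The 6 groups hold 3 lists each except WT at 1 h, which holds 2, one of them numbered 1-2. The labels do not tie samples to animals, so p-values measure the spread between samples, which may be partly technical.

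Ifit proteins are antiviral effectors built from tetratricopeptide repeats. They bind foreign or incompletely capped RNA and hinder its translation. Their genes sit side by side and are among the most strongly induced targets of type I interferon and of the transcription factor IRF3. In LPS-treated macrophages IRF3 acts downstream of Toll-like receptor 4, and secreted interferon-β later acts on the cells through its receptor. Interferon-induced promoters often hold the interferon-stimulated response element (ISRE), to which IRF proteins bind.

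Depth differed among lists. The background recovered from the fold column ran from 0.382 to 9.75 reads per kb, and the lists held 24389 to 71456 intervals. In WT it was 5.11 to 9.75 before LPS, 0.382 and 1.61 after 1 h, and 4.62 to 8.38 after 18 h. In KO it was 0.72 to 7.65, then 0.593 to 4.14, then 1.10 to 1.76. The KO 18 h replicate 1 list stood apart by its narrow peaks, with a shortest peak of 66 bp and a median of 135 bp against medians of 338 to 661 bp elsewhere. Lists were therefore compared by rank. Peaks were ordered by their −log10 p within a list, tied peaks shared a mean rank, and ranks ending in a fraction are printed rounded. The rank score is the log2 of 24390 over the rank, so that 1 unit is a halving of the rank, and a peak outside the best 24389 of its list, or no peak, scores 0. Because scores cannot fall below 0, their spread is small where a group is at 0, and an exact permutation p stands beside limma's p. Between 7 and 8 of 8 macrophage markers had a matched-number peak at a start site in every list, against 0 of 4 T cell and 0 of 3 B cell markers. Of 4 neutrophil markers 1 to 2 did, and of 4 fibroblast markers 0 to 2. At the Nr4a1 start all 11 lists of 0 and 1 h had a peak within the best 24389, as did 1 of 3 WT lists and 0 of 3 KO lists at 18 h, and a deposited peak of any rank was present in 3 of 3 WT and 0 of 3 of the shallower KO lists at 18 h. Whether it lies in the deleted part is not given in the sources used here, so it does not check the genotype.

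The sequences just upstream of the annotated starts are shown first because the promoters differ in the letters they hold. They were read from the plus strand of the GRCm38 genome, which all 4 genes follow, and ISRE matches (GAAANNGAAA on either strand) are in capitals. The Ifit1 window stops at the start of the divergent gene Ifit1bl2. Ifit3b, a near copy of Ifit3 inside the windows, is included for comparison.

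Ifit1, chr19:34640744-34640870: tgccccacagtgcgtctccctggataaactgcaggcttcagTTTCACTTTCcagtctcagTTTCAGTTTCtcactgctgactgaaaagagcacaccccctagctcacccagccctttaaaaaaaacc
Ifit3, chr19:34583311-34583530: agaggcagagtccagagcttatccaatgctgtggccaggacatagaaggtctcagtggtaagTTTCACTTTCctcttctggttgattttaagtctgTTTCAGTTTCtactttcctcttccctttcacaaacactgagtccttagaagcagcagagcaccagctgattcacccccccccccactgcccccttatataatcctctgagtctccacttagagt
Ifit3b, chr19:34607750-34607969: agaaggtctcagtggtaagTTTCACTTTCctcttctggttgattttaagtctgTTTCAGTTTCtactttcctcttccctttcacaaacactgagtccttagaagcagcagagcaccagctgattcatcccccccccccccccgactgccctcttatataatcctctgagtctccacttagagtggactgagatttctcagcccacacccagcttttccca
Ifit2, chr19:34550474-34550693: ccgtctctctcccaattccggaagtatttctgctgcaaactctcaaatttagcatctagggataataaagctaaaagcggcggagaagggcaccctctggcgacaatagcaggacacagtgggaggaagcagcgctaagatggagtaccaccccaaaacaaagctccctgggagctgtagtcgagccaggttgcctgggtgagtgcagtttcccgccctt

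The Ifit1, Ifit3 and Ifit3b stretches each held the same pair of matches, TTTCACTTTC followed by TTTCAGTTTC. The pair began 86 and 67 bp before the start of Ifit1 and 158 and 124 bp before that of Ifit3. The 220 bases before Ifit2 held 0 matches, which says only that these letters are not in that window. Of 32851 RefSeq promoters cut to 220 bases, which is longer than the Ifit1 stretch, 2.55% held an ISRE match. Ifit3 also held an AP-1 match (TGANTCA), which was shared with Ifit3b and present in 5.96% of those promoters. Where they align, the Ifit3 and Ifit3b stretches were identical at 175 of 183 columns.

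The map of peaks shows the cluster list by list, and most of what changed with time is visible in it.

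**Figure D1:**
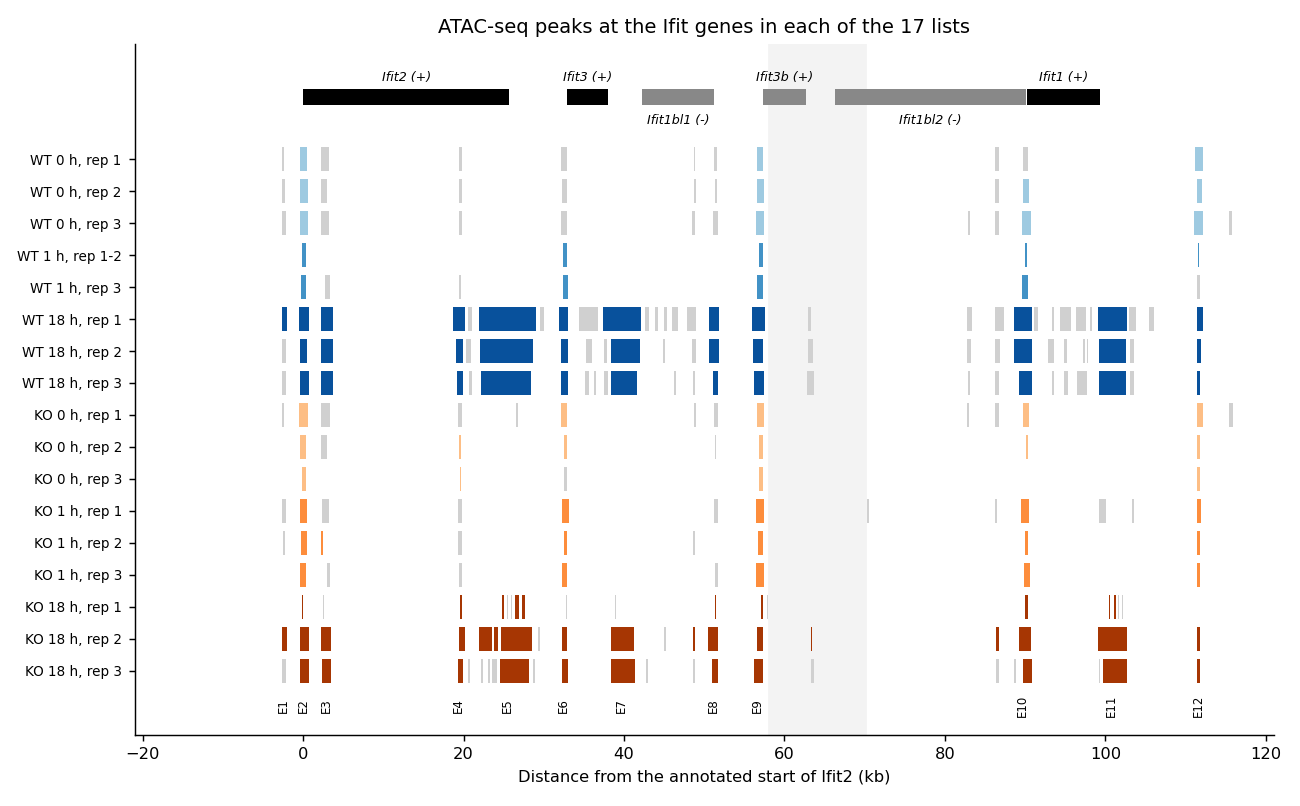
Peaks at the Ifit genes in each of the 17 lists (rows), against distance from the annotated start of Ifit2 in kb. Coloured bars are peaks among the best 24389 of their list and grey bars are lower-ranked peaks, black boxes are the 3 member genes, grey boxes are neighbouring Ifit genes with their strands, and the pale strip was not within 20 kb of a member. Wide bars lie at or just past the 3′ ends of Ifit2, Ifit3 and Ifit1 in the WT 18 h lists and in KO 18 h replicates 2 and 3.

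The stretch covered by peaks was several-fold wider at 18 h. In WT, where depth at 0 and 18 h overlapped, deposited peaks covered 6484, 6272 and 8868 bp of the windows at 0 h and 40986, 29213 and 26904 bp at 18 h. At 1 h, in the shallower lists, they covered 2136 and 3850 bp. In KO they covered 8288, 3672 and 1923 bp at 0 h, then 8264, 3689 and 4482 bp at 1 h, and 3284, 21542 and 19523 bp at 18 h. The KO 18 h list with the low value was replicate 1, the list of narrow peaks. Counts of intervals followed the same order, with 11 to 13 per list in WT at 0 h, 5 and 7 at 1 h, and 24 to 29 at 18 h. In KO there were 5 to 14, then 8 to 13, then 18 to 22.

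Ifit1 encodes the founding member of the family, which sequesters RNA lacking cap methylation. Its promoter element E10 (chr19:34639261-34641550) lies between the divergent starts of Ifit1 (ENSMUSG00000034459.8) and Ifit1bl2, and the best summit falls in the 127 bp between them. In WT at 0 h it ranked 25288, 21810 and 21964, 1 list outside the scored ranks and 2 just inside. At 1 h it ranked 11828 and 11284, and at 18 h 5443, 5311 and 3755. In KO at 0 h it ranked 22012 and 16116 and was absent from replicate 3, at 1 h it ranked 9651, 5574 and 7176, and at 18 h 10273, 3824 and 2031. Every list at 1 h and at 18 h stood above every list at 0 h. Over both genotypes the score rose by 1.23 ± 0.32 (SE) at 1 h (limma adjusted p = 0.00876, exact p = 0.005, the smallest that test can give). At 18 h it was 2.25 ± 0.30 above 0 h (adjusted p = 6.83e-05, exact p = 0.005). The 18 h level also exceeded that at 1 h, by 1.02 ± 0.32 (adjusted p = 0.0249, exact p = 0.04). The gain at 1 h did not pass the threshold with depth as a covariate (1.08 ± 0.42, adjusted p = 0.0961) or with ranks taken as a share of the whole list (0.85 ± 0.38, adjusted p = 0.0669). With the 10000 best peaks the gain was 0.23 ± 0.30 at 1 h (adjusted p = 0.65) and 1.15 ± 0.28 at 18 h (adjusted p = 0.0115). When a peak had to cover 50% of the element the 1 h difference was 0.00 ± 0.39 (adjusted p = 1).

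Ifit3 encodes a partner that, in human cells, is known to stabilise Ifit1 on RNA. Its promoter element E6 (chr19:34582546-34583806, gene ENSMUSG00000074896.3) had a peak in all 17 lists. In WT it ranked 25288, 27005 and 24714 at 0 h, 9850 and 14303 at 1 h, and 10017, 11916 and 9903 at 18 h. In KO it ranked 24181, 23586 and 26637 at 0 h, 15041, 5574 and 11553 at 1 h, and 31974, 9785 and 11321 at 18 h. All 1 h lists stood above all 0 h lists, and at 18 h all did but KO replicate 1. The score rose by 1.16 ± 0.26 at 1 h (limma adjusted p = 0.00365, exact p = 0.005) and lay 1.00 ± 0.25 above 0 h at 18 h (adjusted p = 0.00787, exact p = 0.02). Between 1 and 18 h the difference was −0.16 ± 0.26 (adjusted p = 0.684). The gain at 1 h was 0.79 ± 0.31 with depth as a covariate (adjusted p = 0.101) and 0.80 ± 0.36 with ranks as a share of the list (adjusted p = 0.0682), neither past the threshold. The 18 h difference was 0.65 ± 0.34 with ranks as a share of the list (adjusted p = 0.136) and 0.01 ± 0.11 with the 10000 best peaks (adjusted p = 1), and neither passed. With the 10000 best peaks the 1 h gain was 0.15 ± 0.11 (adjusted p = 0.39), and with peaks covering 50% of the element 0.11 ± 0.20 (adjusted p = 0.734). Only 48.8% of the 32-base words within 100 bp of its best summit are unique in the genome, the length of the first read, and the remainder occur elsewhere as well.

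Ifit2 encodes another RNA-binding member of the family, also linked to cell death. Its promoter element E2 (chr19:34550140-34551434, gene ENSMUSG00000045932.12) was open throughout and was among the best 24389 peaks of all 17 lists. In WT it ranked 13347, 11259 and 11119 at 0 h, 9850 and 12373 at 1 h, and 6950, 7474 and 7327 at 18 h. In KO it ranked 9064, 13993 and 11660 at 0 h, 14199, 19586 and 20243 at 1 h, and 11542, 7450 and 9746 at 18 h. The groups at 0 and 18 h overlapped in KO and not in WT. At 1 h the score differed from 0 h by −0.27 ± 0.17 (limma adjusted p = 0.279, exact p = 0.19). At 18 h it rose by 0.49 ± 0.16 over 0 h (adjusted p = 0.0408, exact p = 0.02), and by 0.41 to 0.57 when any 1 list was dropped, where the call did not hold in 10 of 17 fits. With ranks as a share of the list the difference was 0.16 ± 0.35 (adjusted p = 0.767), and with the 10000 best peaks 0.29 ± 0.07 (adjusted p = 0.00741). It rose by 0.76 ± 0.17 from 1 to 18 h (adjusted p = 0.00389, exact p = 0.005). An NF-kB match begins 28 bp after its best summit, and 4.81% of all consensus sites and 3.95% of promoter sites hold one within 100 bp of theirs.

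**Figure D2:**
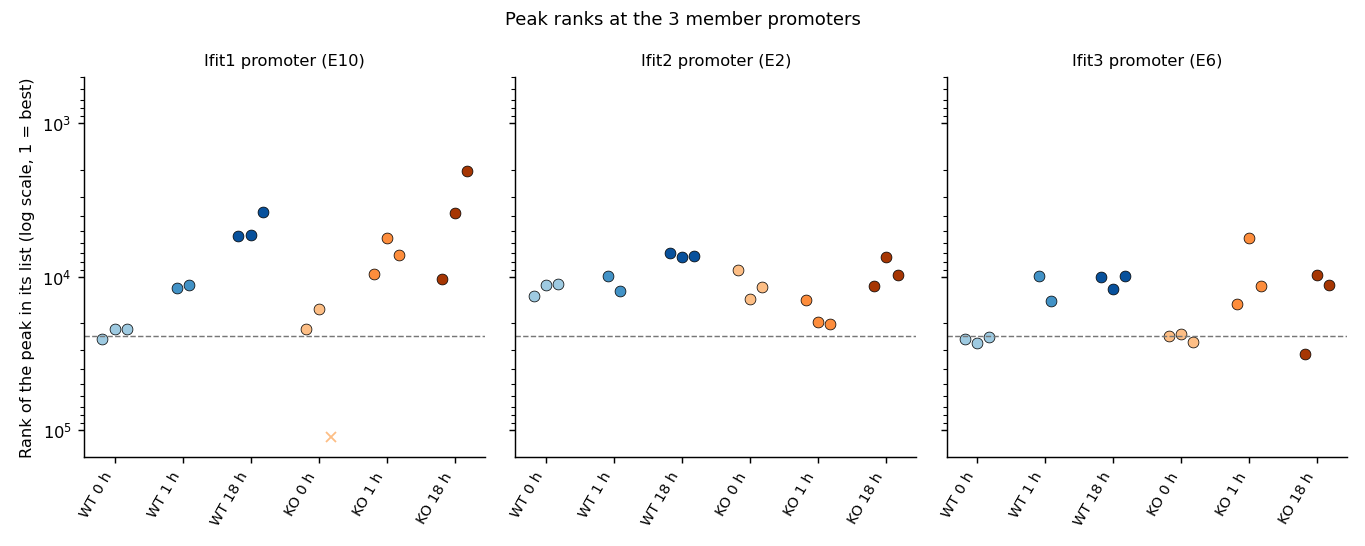
Rank of the peak at each member promoter (log axis, best rank at the top) in every list, by genotype and hours of LPS. Points are single lists, a cross is a list without a peak, and the dashed line marks rank 24389, beyond which the score is 0; the Ifit1 and Ifit3 points lie near the line at 0 h and above it at 1 h, and Ifit2 lies above it in all lists.

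Across the 17 lists the Ifit1 score tracked that of Ifit3 (Pearson's r = 0.784) more closely than that of Ifit2 (r = 0.296), and Ifit2 and Ifit3 had r = 0.0563. These values describe lists that also share depth and time. By the mean rank score over the 3 member promoters, the most alike of 10815 genes with a promoter site were Trim37 (r = 0.938), Rtp4 (r = 0.928), Zfp84 (r = 0.919), Cmpk2 (r = 0.915) and Rsad2 (r = 0.913).

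A second change lay downstream of the promoters. The merged elements E5, E7 and E11 span the annotated 3′ ends of Ifit2, Ifit3 and Ifit1 and run into the DNA beyond, and E5 starts well inside Ifit2, which ends at position 34576419. The end itself lay inside the best peak of 5 of 6 lists at 18 h at E5, 4 of 6 at E11 and 1 of 6 at E7, whose other peaks began past it. In WT they had peaks at 18 h and in no list at 0 or 1 h. E5 (chr19:34572578-34579779) ranked 2651, 3011 and 1821 in WT at 18 h and 11542, 712 and 1487 in KO at 18 h, and was otherwise found once, at 63821 in KO 0 h replicate 1. E11 (chr19:34649710-34653343) ranked 14041, 12405 and 14170 in WT and 20182, 5269 and 7443 in KO at 18 h, and was otherwise found at 60922 in KO 1 h replicate 1. E7 (chr19:34588092-34592803) ranked 14219, 14418 and 15062 in WT and 28007, 10733 and 12164 in KO at 18 h and was found in no other list. The background of the WT lists at 0 h overlapped that of the WT lists at 18 h, and 2 of the 3 lists at 0 h lay within its range.

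These peaks were broad. In WT at 18 h single peaks spanned 6237 to 7142 bp at E5, 3261 to 4712 bp at E7 and 3303 to 3634 bp at E11, against a median of 531 to 660 bp over all peaks of those lists. Each WT peak at E5 held 9 to 12 summits. In KO replicates 2 and 3 the E5 peaks spanned 3839 and 3521 bp, and in replicate 1, with its narrow peaks, 524 bp. The E5 score was 3.36 ± 0.46 higher at 18 h than at 0 h (limma adjusted p = 8.21e-05, exact p = 0.005), that of E11 1.13 ± 0.22 (adjusted p = 0.00178, exact p = 0.005) and that of E7 0.74 ± 0.14 (adjusted p = 0.00158, exact p = 0.02). All 3 entered the consensus only through 18 h lists and so had to differ, and the p-values are given as a description.

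**Figure D3:**
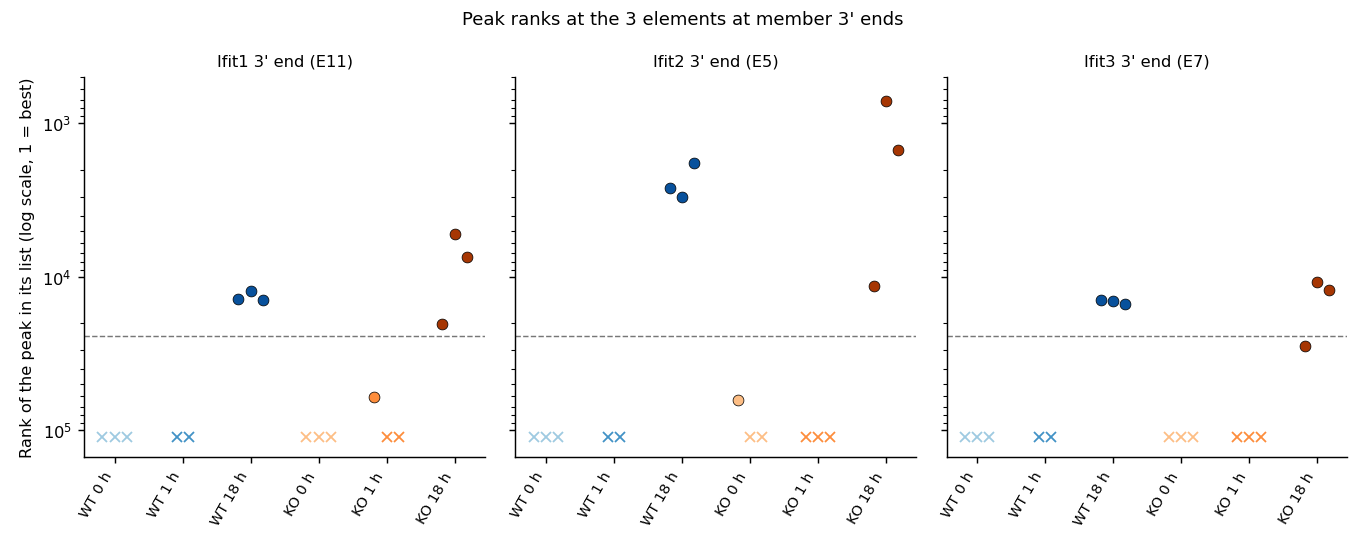
Rank of the peak at the elements at the 3′ ends of Ifit1, Ifit2 and Ifit3 (log axis, best rank at the top) in every list. Points are single lists, crosses are lists without a peak, and the dashed line marks rank 24389; at 0 and 1 h crosses fill the row except for 1 list at Ifit1 and 1 at Ifit2, both at the bottom of their lists.

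Shares of sites with the same pattern follow as a description. E5, E7, E8 and E11 entered the consensus only through 18 h lists and so had to differ. A peak within the best 24389 in all 6 lists at 18 h and in none of the 11 at 0 or 1 h was seen at E5, E8 and E11, and at 219 of 34186 consensus sites (0.641%). By mean rank at 18 h, E5 came first of the 219, E8 6th and E11 28th. A deposited peak of any rank in all 6 lists at 18 h and in none of the 11 others was seen at E7 and at 39 consensus sites (0.114%). Of 565 consensus sites over the 3′ end of a protein-coding gene and away from a start, 92 (16.3%) were called higher at 18 h. Of 14 such sites at listed interferon-stimulated genes, 8 were called higher, among them Parp14 (0.69, limma adjusted p = 0.000137), an ADP-ribosyltransferase, Usp18 (1.33, adjusted p = 0.000206), which removes the ubiquitin-like protein ISG15 from its targets, and Adar (0.77, adjusted p = 0.00039), an RNA editing enzyme. The site over the 3′ end of Trim25, a ubiquitin ligase of the RIG-I pathway, was lower (−1.39, adjusted p = 0.0238). The look at gene ends was chosen after E5, E7 and E11 had been seen.

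Within Ifit2, 2 further elements rose in rank at 18 h, and both already had peaks at 0 h. E4 (chr19:34569349-34570929), whose best summit lies in a UTR exon of Ifit2, ranked 5818, 5130 and 5368 in WT and 2111, 3270 and 6512 in KO at 18 h. Before LPS it ranked 26468 to 31314 in WT and 12738 to 26817 in KO, and no 1 h list held it within the scored ranks. All 18 h lists stood above all 0 h lists, with a rise of 2.25 ± 0.23 (limma adjusted p = 6.92e-06, exact p = 0.005). E3 (chr19:34552896-34554422), in an intron, ranked 8593 to 11916 in WT and 10733 to 28007 in KO at 18 h, against 32972 or worse in WT at 0 h. In KO at 0 h it ranked 34412 and 25162 and was absent from replicate 3, so the KO ranks at 0 and 18 h overlapped. Its score rose by 0.94 ± 0.15 (adjusted p = 0.000387, exact p = 0.02). It lay within the scored ranks of 5 lists at 18 h and 1 other, so it too reached the consensus through 18 h, and its p-values are a description.

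The neighbouring Ifit genes followed Ifit1 and Ifit3 in part. The Ifit3b promoter E9 (chr19:34606621-34608230) was within the scored ranks of all 17 lists. It ranked 20126, 19175 and 21530 in WT at 0 h, 9850 and 9462 at 1 h, and 7166, 6355 and 7863 at 18 h. In KO the ranks were 19508, 13392 and 20689, then 6161, 3321 and 5522, then 14937, 6804 and 6962. The rise was 1.46 ± 0.23 at 1 h (limma adjusted p = 0.000222, exact p = 0.005) and 1.25 ± 0.22 at 18 h (adjusted p = 0.00067, exact p = 0.01). With depth as a covariate the 1 h value was 1.28 ± 0.30 (adjusted p = 0.00829). When a peak had to cover 50% of the element neither call held, with 0.55 ± 0.40 at 1 h (adjusted p = 0.332) and 1.05 ± 0.38 at 18 h (adjusted p = 0.0889). As at E6, only 50% of the 32-base words at its summit are unique. The Ifit1bl1 promoter E8 (chr19:34601112-34602566) was within the scored ranks only at 18 h, at 7202 to 11955 in WT and 4839 to 15965 in KO, 1.53 ± 0.23 above 0 h (adjusted p = 0.000181). It too reached the consensus through 18 h lists alone. Ifit1bl2 shares E10 with Ifit1. Of the flanking genes, the site at Lipa, which encodes a lysosomal acid lipase, fell by 1.41 ± 0.31 at 1 h (adjusted p = 0.00314) and differed by −0.27 ± 0.29 at 18 h (adjusted p = 0.571). Ch25h and Slc16a12 had no consensus site within 1 kb of a start.

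One element went the other way. E12 (chr19:34661791-34662890), an intergenic element 11782 bp past the end of Ifit1, ranked 14925 to 16656 in WT and 10715 to 16116 in KO at 0 h. At 1 h it ranked 20457 and 27028 in WT and 18911 to 22863 in KO, and the score fell by 0.56 on the log2 scale (SE 0.15, limma adjusted p = 0.0109, exact p = 0.005). At 18 h it was back at 12864 to 17154 in WT and was 15965 and 18251 in KO, with no peak in KO replicate 1, a difference of −0.22 ± 0.14 from 0 h (adjusted p = 0.298). E1 (chr19:34548045-34548674), upstream of Ifit2, reached the scored ranks in 2 lists, both at 18 h, and passed no test.

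**Figure D4:**
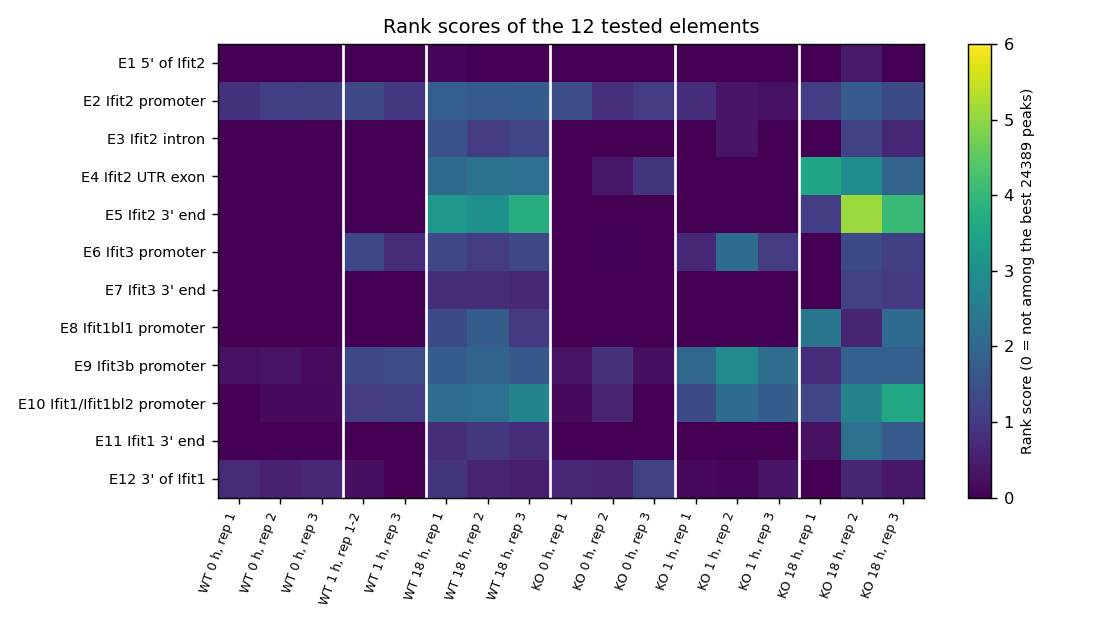
Rank score of the 12 tested elements (rows, in chromosome order) in the 17 lists (columns, by genotype and time). Colour runs from 0, not among the best 24389 peaks, to 6; E6, E9 and E10 are above 0 in all 1 h lists, E5, E7, E8 and E11 are above 0 only at 18 h, and E2 is above 0 in all lists.

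Counted over the 12 elements, limma called 3 higher (E6, E9 and E10) and 1 lower (E12) at 1 h against 0 h, where 13.7% of all consensus sites were called higher and 14.4% lower. At 18 h against 0 h, 10 were higher and 0 lower, where 10.7% of all sites were higher and 13.0% lower, and the median difference was 1.06 against 0.00 over all sites. From 1 to 18 h, 8 were higher and 0 lower, against 13.7% and 15.2% of all sites. The exact permutation test, adjusted over all sites, called 5 elements in each of the last 2 comparisons, where it called 14.9% and 13.4% of all sites in either direction. At 18 h against 0 h its adjusted p was 0.0771 at E2, E3, E6 and E7 and 0.0556 at E9. With the 10000 best peaks the 18 h rise was not called at E8 (0.40, limma adjusted p = 0.0578), E9 (0.43, adjusted p = 0.0606) or E11 (0.23, adjusted p = 0.162). With peaks covering 50% of the element it was not called at E2 (0.49, adjusted p = 0.311) or E8 (0.97, adjusted p = 0.0699), nor was the fall of E12 at 1 h (−0.43, adjusted p = 0.0691). Dropping KO 18 h replicate 1 left the count at 18 h against 0 h at 10. E1, E3, E5, E7, E8 and E11 would not have reached the consensus without their 18 h peaks, so these counts describe the cluster and carry no test. Every 18 h list stood above every 0 h list at 5 elements (E4, E5, E8, E10 and E11) and at 5.53% of all sites. Every 1 h list stood above every 0 h list at 3 elements (E6, E9 and E10) and at 8.58% of all sites. Of the 22 untested elements 16 were found at 18 h only, 4 at 18 h and earlier, and 2 earlier only, against 11.5%, 38.7% and 49.7% of the 66381 elements outside the consensus sites of the whole genome. In all 3 WT lists at 18 h 9 of them had a peak, against 10.9% genome-wide, and in all 3 KO lists 0 did, against 0.163%, where the WT lists were deeper. Inside the Ifit1 gene lay 6, found in WT lists alone, with best ranks from 34955 to 52124. The KO lists at 18 h ended at 36136, 29568 and 32187 intervals, so absence from them does not bear on genotype. The genome-wide share found in WT lists alone was not computed.

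No element passed the test for an effect of losing Nur77, which the design asks about. Averaged over time, 0 of 12 were called between KO and WT by limma, where 0.538% of all sites were called, and 1 had an unadjusted p under 0.05 by either test, as did 9.81% of all sites by limma and 6.97% by the exact test. That was the Ifit2 promoter E2, at −0.34 ± 0.14 in KO (adjusted p = 0.432, exact p = 0.0368, 95% interval −0.63 to −0.04). Taken time by time, in order, its difference was 0.06, −0.69 and −0.38. The Ifit1 promoter differed by 0.32 ± 0.25 (interval −0.22 to 0.86), which ran from 0.14 without KO 18 h replicate 3 to 0.53 without KO 18 h replicate 1, and the Ifit3 promoter by −0.04 ± 0.21 (interval −0.48 to 0.41). For the change with LPS, 0 of 12 elements were called between genotypes at 1 h (0.284% of all sites) and 0 at 18 h (0.0468%), with 1 and 0 at an unadjusted p under 0.05 by limma, against 7.09% and 6.65% of all sites. The exact test called 0 of all 34186 sites in each of the 3 comparisons, so its 0 at these elements carries no information on them. The 18 h gain was 2.25 in either genotype at E10, and in WT and KO respectively it was 3.32 and 3.40 at E5, 2.17 and 2.34 at E4, 1.37 and 1.68 at E8, 0.74 and 0.73 at E7 and 0.85 and 1.40 at E11. It was 0.71 and 0.27 at the Ifit2 promoter, 1.21 and 0.79 at the Ifit3 promoter, 1.51 and 0.98 at E9 and 1.27 and 0.62 at E3. None of these differences passed the test, and the WT and KO values of E1 and E12 lay between −0.47 and 0.15. KO 18 h replicate 1, the list of narrow peaks, ranked last of the KO 18 h lists at the Ifit2 and Ifit3 promoters, E9 and E3. The same held at E5, E7, E10 and E11. When KO 18 h replicate 1 was dropped, E11 was called higher in KO, by 0.37 over all times (adjusted p = 0.0360) and by 1.11 in the 18 h response (adjusted p = 0.0159). When a peak had to cover 50% of the element, E4 was called lower in KO, at −0.72 (adjusted p = 0.00156) and in the 18 h response at −2.17 (adjusted p = 0.000178), against 0.35 and 0.17 as reported. KO lists at 18 h were also shallower than WT lists at 18 h. With depth as a covariate limma called 0 of 12 elements in each of the 3 comparisons, and KO differed from WT by −0.26 at the Ifit2 promoter (adjusted p = 0.727), 0.23 at Ifit1 (adjusted p = 0.889) and −0.24 at Ifit3 (adjusted p = 0.844). Depth was not combined with the settings that gave the calls at E11 and E4.

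Other interferon-stimulated genes give the setting. Their list was also chosen with earlier results of these data known, so its counts are a description. Of 42 listed genes outside the cluster, 37 had a consensus site within 1 kb of a start, at 36 distinct sites since Parp9 and Dtx3l share one. At 1 h, 10 of the 37 were called higher and 2 lower, at 18 h against 0 h 25 higher and 0 lower, and at 18 h against 1 h 23 higher and 1 lower. Over all 10319 promoter sites, 5.06% were higher and 17.9% lower at 1 h and 4.54% higher and 12.8% lower at 18 h. From 1 to 18 h the shares of all promoter sites were 12.4% higher and 8.57% lower. The median difference of the listed genes was 0.11 at 1 h and 1.12 at 18 h, against −0.27 and −0.14 over all promoter sites. Rsad2, which encodes the antiviral enzyme viperin, rose by 2.23 ± 0.24 at 1 h (limma adjusted p = 5.48e-06, exact p = 0.005), ahead of the chemokine gene Cxcl10 (1.98 ± 0.22) and the GTPase gene Gbp2 (1.27 ± 0.18). Irgm1, an interferon-inducible GTPase, and Adar fell at 1 h, by 0.68 and 0.73, and rose by 1.86 and 1.92 from 1 to 18 h. Gbp5 differed by −0.62 ± 0.19 from 1 to 18 h (adjusted p = 0.0208, exact p = 0.045). At 18 h Irf7, the interferon-induced IRF, rose by 3.37 ± 0.26 (adjusted p = 1.24e-06) and Mx2, a dynamin-like antiviral GTPase, by 2.57 ± 0.20. Between KO and WT limma called 0 of the 37, where 3 had an unadjusted p under 0.05 by limma and 2 by the exact test, against 8.95% and 7.93% of all promoter sites. In the plot of promoter change at 18 h, Ifit1 stood among the larger values, Ifit3 near the middle and Ifit2 in the lower part.

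**Figure D5:**
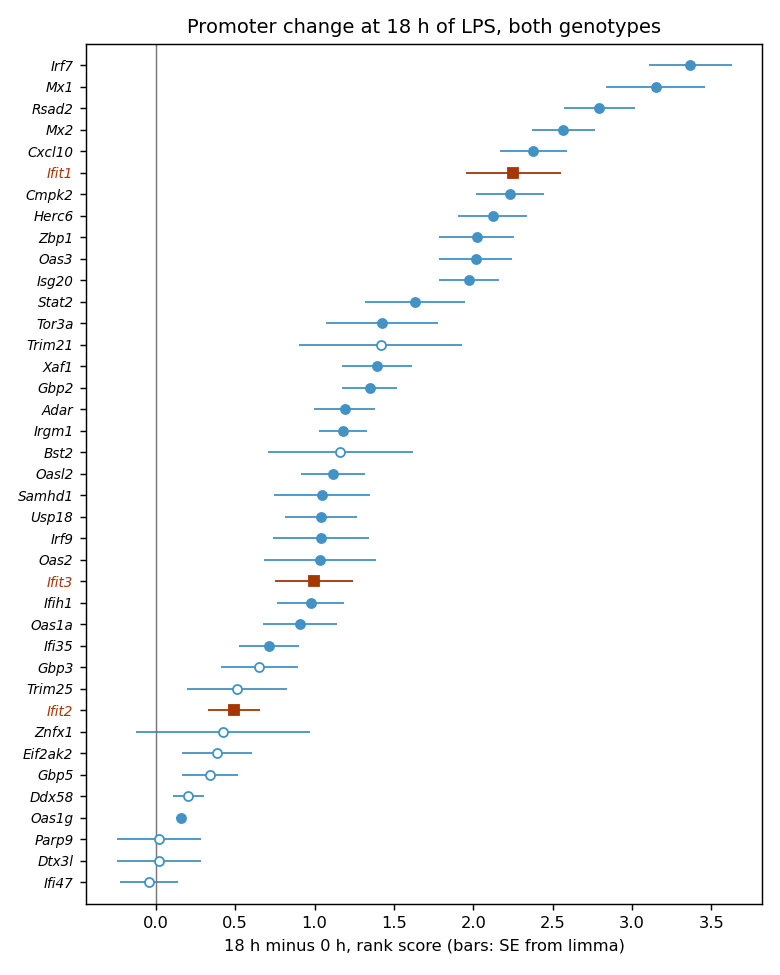
Difference in rank score between 18 and 0 h of LPS, averaged over genotypes, at the promoter sites of the 3 member genes (squares) and of 36 of the 37 other interferon-stimulated genes (circles), with SE bars from limma. Filled symbols passed an adjusted p of 0.05; Ifit1 lies at 2.25, Ifit3 at 1.00 and Ifit2 at 0.49, and the 37 listed genes have a median of 1.12.

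ISRE matches lay near some best summits and farther from others. Within 100 bp of the best summit E6, E8, E9 and E10 held one, as did 3.63% of all consensus sites, 2.12% of promoter sites and the promoter sites of 16 of the 37 listed genes. These are the promoters of Ifit3, Ifit1bl1, Ifit3b and Ifit1. Outside that distance a match began 129 bp before the best summit of E4, 296 and 302 bp after that of E3, 2814 bp before that of E5 and 1525 bp before that of E11. E6 and E9 also held an AP-1 match there, as did 19.9% of all sites and 4.86% of promoter sites. E8 held a PU.1 match (GAGGAAGT), which 7.73% of all sites and 3.08% of promoter sites held. No element held the Nur77 monomer motif NBRE (AAAGGTCA) within 100 bp of its best summit, where 1.05% of all sites did. In whole elements an NBRE match lay 468 bp before the best summit of E5, 1160 bp before that of E7 and 1019 bp before that of E10. AP-1 matches also lay in E1, E5, E7 and E11 as whole elements, and an NF-kB match in E7. Shares over all sites were computed only within 100 bp of summits, so matches in whole elements have no background beside them.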

How the data were processed

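ATAC-seq peaks of 17 samples were used. The authors trimmed reads with cutadapt (version 2.6, per the labels), mapped 32 and 44 bp read pairs to mm10 and ran the snakeATAC pipeline with default settings. The peak caller is not given in the sources used here. The deposited lists give, per the file values, a score, a fold enrichment over background, −log10 p and −log10 q for each summit, and the fold was taken as a ratio of reads. No differential results of the authors were used.

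Summits of one interval were collapsed, ranked by −log10 p and limited to the best 24389, the length of the shortest list. Peaks overlapping by 1 bp were merged, and sites seen in at least 2 lists were kept. Rank scores were tested with limma (version 3.58.1) with 6 group means and a trend, p-values adjusted by the Benjamini-Hochberg method over 34186 sites, with a threshold of 0.05. Exact two-sided permutation tests exchanged times within genotype, or genotypes within time. The method was tested on simulated data. Depth was recovered from the fold column, as background reads per kb. A promoter site has its summit within 1 kb of a GENCODE start. The elements named are the member promoters and those with an adjusted p under 0.05 in a comparison, and the listed genes named are the 3 with the smallest p in each direction. The members and gene lists were chosen with earlier results of these data known. Alternatives were the best 10000 peaks, ranks as a share of the list, −log10 q of at least 5, peaks covering at least 50% of an element, sites seen in 1 list, windows of 10 and 50 kb, a 500 bp promoter limit, depth as a covariate, a replicate block, no trend, the exact test, and leaving out each list. The value of 1 listed gene is not reported here, although the gene is part of the counts and medians of the list.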

Additional observations from a re-analysis of the deposited data

How the results depend on the processing

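Counts of called elements kept within 1.5 times of the reported value unless given here. With the 10000 best peaks of every list, 8 elements were tested and 1 was called at 1 h against 0 h, 4 at 18 h against 0 h and 4 at 18 h against 1 h. At 1 h against 0 h, 2 were called with ranks as a share of the whole list, 2 with depth as a covariate, 2 in a window of 10 kb, and 0 when a peak had to cover 50% of the element. That last setting also called 1 element, E4, lower in KO than in WT (−0.72, adjusted p = 0.00156) and 1, E4 again, lower in the 18 h response (−2.17), where the reported differences were 0.35 and 0.17. The exact permutation test called 5 at 18 h against 0 h and 5 at 18 h against 1 h. Leaving out 1 list gave 4 calls in every fit at 1 h against 0 h, 9 to 10 at 18 h against 0 h, 7 to 9 at 18 h against 1 h, 0 to 1 between KO and WT, 0 in the 1 h response and 0 to 1 in the 18 h response. The KO against WT difference, which passed no threshold, changed sign at the Ifit1 promoter when peaks had to cover 50% of the element (−0.49), and at the Ifit3 promoter with the 10000 best peaks (0.092), with the replicate block (0.061), and without one list (−0.18 to 0.10). The causes were not tested. Whether replicate numbers pair the samples is not known. Deviations correlated above 0.1 in 4 of 35 same-number pairs (median 0.0055) and 10 of 70 different-number pairs (median 0.0049), which cannot settle it. With the replicate block 4, 9, 8, 0, 0 and 0 elements were called in the 6 comparisons. Only the Ifit2 promoter call at 18 h was lost (0.49, limma adjusted p = 0.0569). The shallow 1 h lists and the narrow peaks of KO 18 h replicate 1 limit the precision.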
